A study of Homo sapiens with 4 samples.

Results

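The genes described here are NFE2L2, which encodes the transcription factor NRF2, its inhibitor KEAP1, and 8 enzyme genes of the antioxidant defence: NQO1, HMOX1, GCLC, GCLM, SRXN1, CAT, SOD1 and SOD2. They were taken by name as a list of 10 from 19821 protein-coding genes, by a rule that holds no measured value, and all 10 were found in the gene table. The list was, however, chosen with earlier results of these data known. The data come from HepG2, a human liver cancer cell line, in which γH2AX was mapped by CUT&Tag. γH2AX is the histone variant H2AX in its phosphorylated form, a mark of DNA double-strand breaks, and CUT&Tag uses an antibody to guide a transposase that cuts and tags the DNA nearby. Lipid overload-induced cells (library HEPG2-PAOA) were set against mock-induced cells (library HEPG2-DMSO). Both libraries used the same cell line and 100000 cells each, and the dose and time of the lipid treatment were not given in the sources used here. Each condition had 1 library, so no difference has a replicate check and no test was run. The 2 matching IgG samples were not analysed here, so how much of any peak is background was not tested.

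NRF2 is the main switch of the antioxidant response. In unstressed cells KEAP1 holds it in the cytoplasm and hands it to a CUL3 ubiquitin ligase, and oxidants or electrophiles that modify cysteines of KEAP1 let NRF2 build up, enter the nucleus and bind antioxidant response elements with small MAF partners. Its targets include enzymes of quinone reduction, haem breakdown and glutathione synthesis. In liver this response is known for its part in detoxification. Catalase and the superoxide dismutases remove hydrogen peroxide and superoxide, the oxidants that NRF2 targets also help to clear.

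The lipid-overload list held 27296 peaks with a median width of 196 bp, and the mock list 8542 peaks with a median width of 180 bp. The height of a peak is the number of fragments over its summit, solved from the fold and p-value that the authors deposited for each peak. Its interval is a 95% Poisson interval, which covers counting error only. By the background levels of the 2 lists, depth was estimated as 2.62 times as high in lipid overload as in mock. This estimate rests on the peak lists and not on read counts. Whether a genome-wide change in γH2AX is part of it was not tested. A lipid-overload height is therefore also given divided by 2.62, called depth-scaled. Of 8 hepatocyte genes, among them ALB and APOB, 0 had a peak at a gene end in either list, and peak positions do not read expression, so they do not check the cell type.

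Of the 10 genes, 8 were marked in lipid overload, meaning a peak within 1 kb of a gene end, against 43.4% of all protein-coding genes. In mock 3 of the 10 were marked, against 13.4% of all protein-coding genes. The 3 genes marked in mock were NQO1, GCLM and SOD2, and all 3 were also marked in lipid overload, as were 12.1% of all protein-coding genes. NFE2L2, HMOX1, SRXN1, CAT and SOD1 were marked in lipid overload only, a pattern held by 31.4% of all protein-coding genes, and 0 were marked in mock only, against 1.34%. KEAP1 and GCLC had no gene-end peak in either list. The shares of these genes stood above the background in both lists, which is a description of 10 genes with no test behind it. Because the genes were chosen with earlier results of these data known, the excess is not evidence about antioxidant genes as a class. The mock list went down to 3 fragments, and 55.3% of its peaks had 5 or fewer, so for NFE2L2 and HMOX1, with a depth-scaled 3.43 each, and SRXN1, with 4.19, a difference between conditions was not detectable at this depth. With the lipid-overload list shortened to the 8542 best peaks, 6 of the 10 were marked, against a background of 25.9%. Then 3 were marked in lipid overload only (SRXN1, CAT and SOD1), against 15.9%.

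**Figure D1:**
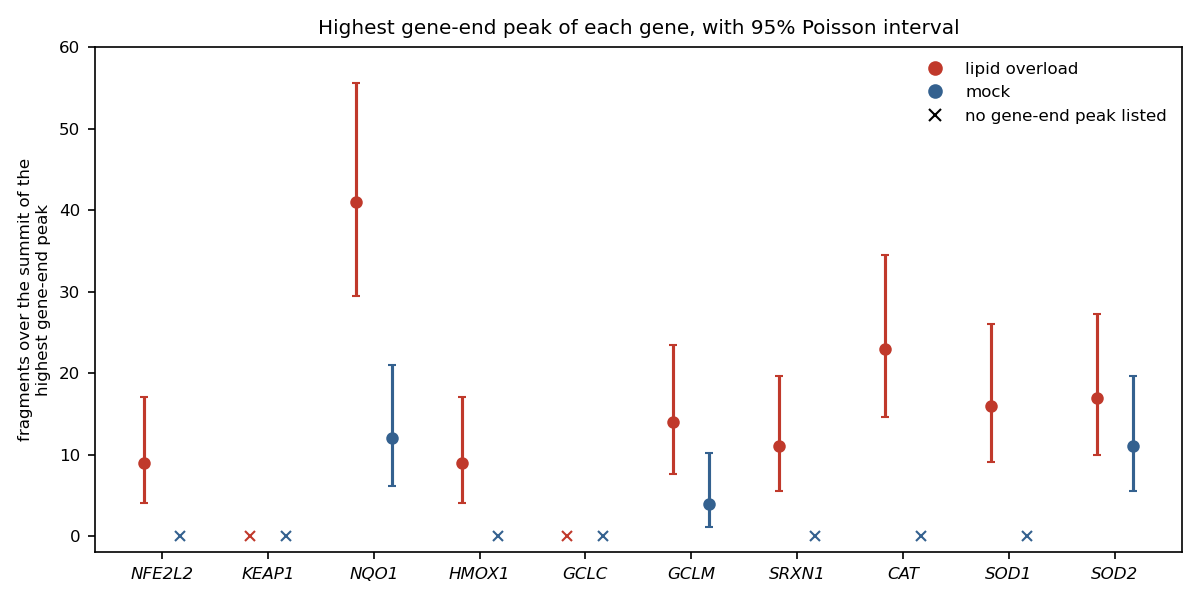
Fragments over the summit of the highest gene-end peak of each gene, lipid overload (red, left) and mock (blue, right), with 95% Poisson intervals; a cross marks a gene with no gene-end peak in that list. NQO1 stood highest in both lists, at 41 fragments in lipid overload and 12 in mock, while KEAP1 and GCLC had crosses in both, and the GCLM values belong to different peaks.

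The starts of the genes place these peaks more closely. RefSeq promoter windows, 250 bases before to 50 bases after a start, were at hand for 8 of the 10 genes in 13 windows, while HMOX1 and SOD1 had none. Of these 8 genes, 6 had a lipid-overload peak within 1 kb of a start (background 45.5%) and 3 a mock peak (background 14.0%). A peak overlapped the 300-base window itself in 5 of 8 genes in lipid overload (background 38.2%) and in 2 of 8 in mock (background 10.8%). At the 3′ end 0 of 8 genes had a peak in either list, where the background was 5.28% in lipid overload and 1.39% in mock.

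**Figure D2:**
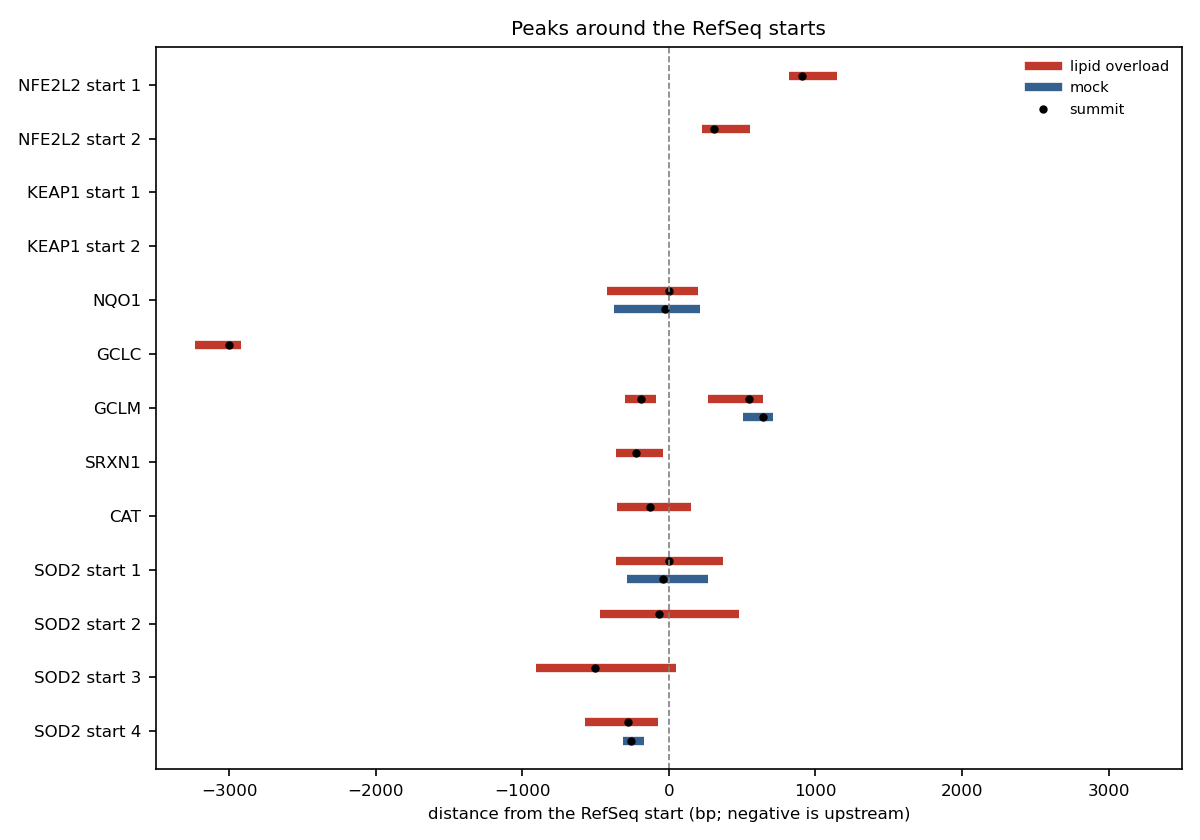
Extent (bar) and summit (dot) of each peak relative to the RefSeq starts of 8 genes, lipid overload above mock, in bp with upstream negative. The peaks of NQO1 and of SOD2 start 1 span the start in both lists, GCLM has an upstream peak in lipid overload only, and the GCLC peak lies 2999 bp upstream.

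Promoter windows are printed for the genes on which the comparison turns: NQO1, marked in both lists, CAT, the highest of those marked in lipid overload only, GCLM and the innermost start of SOD2, where both lists have peaks at the start region, and KEAP1, which had none. They come from RefSeq (build GRCh38.p14, the assembly behind hg38) and are written 5′ to 3′ on the strand of the gene. Capitals mark matches on either strand to the core of the antioxidant response element, TGACNNNGC, and to the GC box GGGCGG, matches of which may overlap.
NQO1 (chr16:69726511-69726810, minus strand): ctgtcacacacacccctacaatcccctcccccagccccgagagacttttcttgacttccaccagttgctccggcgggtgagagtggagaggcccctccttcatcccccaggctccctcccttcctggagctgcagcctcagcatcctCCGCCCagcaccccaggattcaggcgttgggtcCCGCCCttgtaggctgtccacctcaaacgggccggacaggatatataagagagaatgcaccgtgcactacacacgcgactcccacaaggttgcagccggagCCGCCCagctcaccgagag
CAT (chr11:34438684-34438983, plus strand): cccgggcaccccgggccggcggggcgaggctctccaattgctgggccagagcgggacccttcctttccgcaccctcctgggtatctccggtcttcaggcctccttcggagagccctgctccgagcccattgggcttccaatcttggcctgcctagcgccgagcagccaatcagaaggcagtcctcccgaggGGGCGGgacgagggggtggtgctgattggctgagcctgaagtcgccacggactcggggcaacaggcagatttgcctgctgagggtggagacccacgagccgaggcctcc
GCLM (chr1:93909381-93909680, minus strand): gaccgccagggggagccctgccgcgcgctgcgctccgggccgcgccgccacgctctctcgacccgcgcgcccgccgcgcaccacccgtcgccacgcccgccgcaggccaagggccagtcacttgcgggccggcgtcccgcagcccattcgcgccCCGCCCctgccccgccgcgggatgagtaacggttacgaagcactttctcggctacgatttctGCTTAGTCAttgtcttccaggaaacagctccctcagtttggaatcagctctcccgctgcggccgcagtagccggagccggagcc
SOD2 (chr6:159693192-159693491, minus strand): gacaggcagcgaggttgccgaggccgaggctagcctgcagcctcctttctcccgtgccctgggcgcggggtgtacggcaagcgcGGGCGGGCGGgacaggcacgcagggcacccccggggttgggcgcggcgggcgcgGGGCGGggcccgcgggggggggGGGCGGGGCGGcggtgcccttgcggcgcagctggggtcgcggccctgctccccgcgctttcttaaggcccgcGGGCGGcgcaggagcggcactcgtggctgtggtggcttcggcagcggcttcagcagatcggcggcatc
KEAP1 (chr19:10502722-10503021, minus strand): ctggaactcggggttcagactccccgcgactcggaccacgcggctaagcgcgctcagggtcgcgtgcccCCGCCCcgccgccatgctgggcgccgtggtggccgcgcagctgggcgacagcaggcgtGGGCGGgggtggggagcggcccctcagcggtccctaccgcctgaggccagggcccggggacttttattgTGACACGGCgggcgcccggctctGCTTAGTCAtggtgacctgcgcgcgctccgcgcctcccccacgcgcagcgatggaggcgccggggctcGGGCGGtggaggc

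The element core was found in 2 of the 13 windows. Sequence outside the windows was not read, and HMOX1 and SOD1 had no window. The search therefore cannot tell whether any of these genes has an element further from its start. In GCLM the letters are GCTTAGTCA, the core read on the other strand, at bases 217 to 225 of the window. The printed KEAP1 window holds the same 9 letters at bases 220 to 228, and also TGACACGGC at bases 197 to 205. Of 22156 promoter windows of protein-coding genes, 13.8% held the core. The AP-1 site TGANTCA was in 0 of the 13 windows, against 6.16% of all, and the GC box in 11 of 13, against 56.3% of all. A match is a description of letters and not a site of binding. At GCLM the core lies downstream of the lipid-overload summit, which is base 59 of the window, and at KEAP1, with 2 matches, no γH2AX peak was listed within 1 kb of a gene end.

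The windows of these genes were rich in G and C, with a median G+C of 71.7% (62.7% to 80.0%), against a median of 62.3% over all windows of protein-coding genes. Taking a ratio of observed to expected CpG of at least 0.6 as CpG-rich, 6 of the 8 genes had a CpG-rich start, and 4 of these 6 were marked at a start in lipid overload and 2 in mock. Among all genes with a CpG-rich start the shares were 59.9% in lipid overload and 18.4% in mock. The other 2 genes, NQO1 and CAT, had ratios of 0.506 and 0.577, just under that limit. Both were marked in lipid overload, where 11.4% of the genes without a CpG-rich start were, and NQO1 also in mock, where 3.34% were. Among the 8 genes with a promoter window, the 2 highest gene-end summits in lipid overload were thus at the 2 starts with the lowest CpG ratio.

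Of the regulators, NFE2L2 was marked in lipid overload and KEAP1 was not marked at its ends in either list. NFE2L2 (chromosome 2, 177230303 to 177264727) had 9 fragments in lipid overload (4.12 to 17.1), or 3.43 depth-scaled, and no mock peak within 50 kb. The peak was 327 bp wide, from 177263580 to 177263906, with its summit 906 bp inside the upper end of the gene. RefSeq lists 2 starts there, and the peak lies downstream of both, so it overlaps neither promoter window. From the nearer start the summit was 310 bp away. Its height was below the median of 12 fragments: 31.6% of the marked protein-coding genes had a gene-end summit of 9 fragments or fewer in lipid overload. At the 500 bp limit in place of 1 kb, counted from the gene ends, NFE2L2 was not marked.

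KEAP1 (chromosome 19, 10486125 to 10503356), the adaptor that hands NRF2 to the ubiquitin ligase, held no peak in the gene body either. Peaks stood in its neighbourhood all the same, 5 in lipid overload and 2 in mock within 50 kb. The highest had 24 fragments in lipid overload (15.4 to 35.7) and 7 in mock (2.81 to 14.4), inside the phosphodiesterase gene PDE4A, 24730 bp below the lower end of KEAP1. On the other side the nearest peak lay 40427 bp away, next to the autophagy protease gene ATG4D, with 8 fragments in lipid overload. KEAP1 thus lay in a stretch without peaks, with peaks on both sides of it in lipid overload and on the PDE4A side in mock.

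Of the NRF2 target enzymes, NQO1 carried the highest and HMOX1 the lowest gene-end summit among those marked in lipid overload. NQO1 (chromosome 16, 69709401 to 69726560), a quinone reductase that is a classical readout of NRF2, had 41 fragments in lipid overload (29.4 to 55.6) and 12 in mock (6.20 to 21.0). The ratio was 3.42 (1.76 to 7.14), an interval that holds the depth ratio of 2.62, so a difference beyond depth was not detectable. Depth-scaled, the lipid-overload height was 15.6. The summits lay 2 bp upstream of the RefSeq start in lipid overload and 26 bp upstream in mock, at base 249 of the printed window in lipid overload and base 225 in mock. Both peaks were wide, 626 bp in lipid overload and 587 bp in mock, at least as wide as 97.9% of the lipid-overload peaks and 99.2% of the mock peaks. They also lay within 1 kb of an end of the divergent noncoding RNA NQO1-DT. In lipid overload 97.5% of the marked protein-coding genes had a summit no higher than that of NQO1, and in mock 90.9%.

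GCLM (chromosome 1, 93885199 to 93909430), the modifier subunit of the enzyme that limits glutathione synthesis, had different peaks in the 2 lists. In lipid overload a peak of 14 fragments (7.65 to 23.5), 209 bp wide from 93909520 to 93909728, had its summit 192 bp upstream of the start, and no mock peak overlapped it. All its gene-end peaks, in both lists, lay within 1 kb of the noncoding gene LOC124904221. A second lipid-overload peak of 8 fragments (3.45 to 15.8) lay inside the gene from 93908789 to 93909164, 376 bp wide. The mock peak of 4 fragments (1.09 to 10.2), 207 bp wide, overlapped this second peak. The ratio of this overlapping pair was 2.00 (0.536 to 9.08), an interval that holds 2.62. With a −log10 q of at least 5, GCLM was marked in lipid overload and not in mock. This cut was not scaled for depth, and the upstream lipid-overload peak stood at 5.33 depth-scaled.

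GCLC (chromosome 6, 53497341 to 53545101), the catalytic subunit of the same enzyme, had no gene-end peak. In lipid overload a peak of 12 fragments (6.20 to 21.0), 319 bp wide from 53548017 to 53548335, had its summit 2999 bp upstream of the RefSeq start. A weaker peak of 6 fragments (2.20 to 13.1) lay inside the gene, 159 bp wide. Mock had no peak in GCLC or within 50 kb of it. Depth-scaled, the lipid-overload peaks stood at 4.57 upstream and 2.29 inside. At such heights, as for SRXN1, a difference between conditions was not detectable. With a gene end of 3 kb, GCLC was marked in lipid overload. The 2 subunits of this enzyme thus had their highest nearby peaks at different distances from the start.

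HMOX1 (chromosome 22, 35381096 to 35394207), the haem oxygenase that breaks haem down to biliverdin, had 9 fragments in lipid overload (4.12 to 17.1), or 3.43 depth-scaled, and no mock peak at its ends or inside. The peak was 302 bp wide, from 35381044 to 35381345, with its summit 5 bp inside the lower end of the gene. A second lipid-overload peak of 5 fragments (1.62 to 11.7) lay inside the gene, 128 bp wide. Outside the gene, a lipid-overload peak of 11 fragments (5.49 to 19.7), or 4.19 depth-scaled, was 180 bp wide. Its summit lay 9117 bp below the lower end of HMOX1, and no mock peak overlapped it. The strongest peak of this locus belonged to its neighbour: next to the end of MCM5, a subunit of the replicative helicase, stood 28 fragments in lipid overload (18.6 to 40.5) and 11 in mock (5.49 to 19.7), 5786 bp beyond the upper end of HMOX1. The ratio there was 2.55 (1.23 to 5.67).

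SRXN1 (chromosome 20, 646615 to 653200), which encodes sulfiredoxin and repairs over-oxidised peroxiredoxins, had 11 fragments in lipid overload (5.49 to 19.7), or 4.19 depth-scaled. The peak was 325 bp wide, from 653238 to 653562, with its summit 222 bp upstream of the start, and covered 213 bases of the promoter window. Its summit also lay inside the noncoding gene LOC107985423, with an end of that gene within 1 kb of the peak. No other peak stood within 50 kb in lipid overload, and none at all in mock. Its promoter window had the highest G+C of the 13, at 80.0%.

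Of the enzymes that act on hydrogen peroxide and superoxide, CAT had the highest gene-end summit in lipid overload and SOD2 the most marked starts. CAT (chromosome 11, 34438934 to 34472060), which encodes catalase, had 23 fragments in lipid overload (14.6 to 34.5), or 8.76 depth-scaled, and no mock peak within 50 kb. The peak was 509 bp wide, from 34438579 to 34439087, and covered all 300 bases of the printed window, with its summit 132 bp upstream of the start at base 119. Of the mock peaks, 81.0% rested on no more fragments than this depth-scaled height. In lipid overload 85.9% of the marked protein-coding genes had a summit no higher than that of CAT.

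SOD1 (chromosome 21, 31659693 to 31668931), the copper-zinc superoxide dismutase of the cytosol, had 16 fragments in lipid overload (9.15 to 26.0), or 6.10 depth-scaled, and no mock peak within 50 kb. The peak was 582 bp wide, from 31659644 to 31660225, with its summit 123 bp inside the lower end. The summit also lay inside the divergent noncoding RNA gene SOD1-DT, with an end of that gene within 1 kb of the peak. No flank peak stood within 50 kb of SOD1 in lipid overload. Of the mock peaks, 66.8% rested on no more fragments than the depth-scaled height of SOD1, and a difference between conditions was not tested.

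SOD2 (chromosome 6, 159669069 to 159762281), the manganese superoxide dismutase of mitochondria, was the longest of the genes at 93213 bp, and RefSeq gives it 4 starts. In lipid overload 3 peaks lay within 1 kb of these starts, and in mock 2. At the upper end of the gene, a peak of 17 fragments in lipid overload (9.90 to 27.2) and 11 in mock (5.49 to 19.7) was shared with ACAT2, an acetyl-CoA acetyltransferase gene that begins there. The ratio was 1.55 (0.683 to 3.65), an interval that holds 2.62. These peaks were 736 bp wide in lipid overload and 549 bp in mock. Further in, a peak of 22 fragments in lipid overload (13.8 to 33.3), or 8.38 depth-scaled, had no mock counterpart, a difference that was not tested. It was 951 bp wide, at least as wide as 99.9% of the lipid-overload peaks, and ran from 159726904 to 159727854 over 2 starts of SOD2. Its summit lay inside WTAP, which encodes a subunit of the RNA methyltransferase complex, and an end of WTAP was within 1 kb of the peak. Around the innermost start, printed above, stood 18 fragments in lipid overload (10.7 to 28.4) in a peak of 499 bp, and 8 in mock (3.45 to 15.8) in a peak of 139 bp. Their summits lay 277 bp upstream of the start in lipid overload and 256 bp in mock, just outside the window, with a ratio of 2.25 (0.931 to 5.98). Because the peak near the upper end is shared, the gene-end count cannot tell SOD2 and ACAT2 apart. The 951 bp peak cannot be given to SOD2 or WTAP alone. The peaks at the innermost start have no end of another protein-coding gene within 1 kb.

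**Figure D3:**
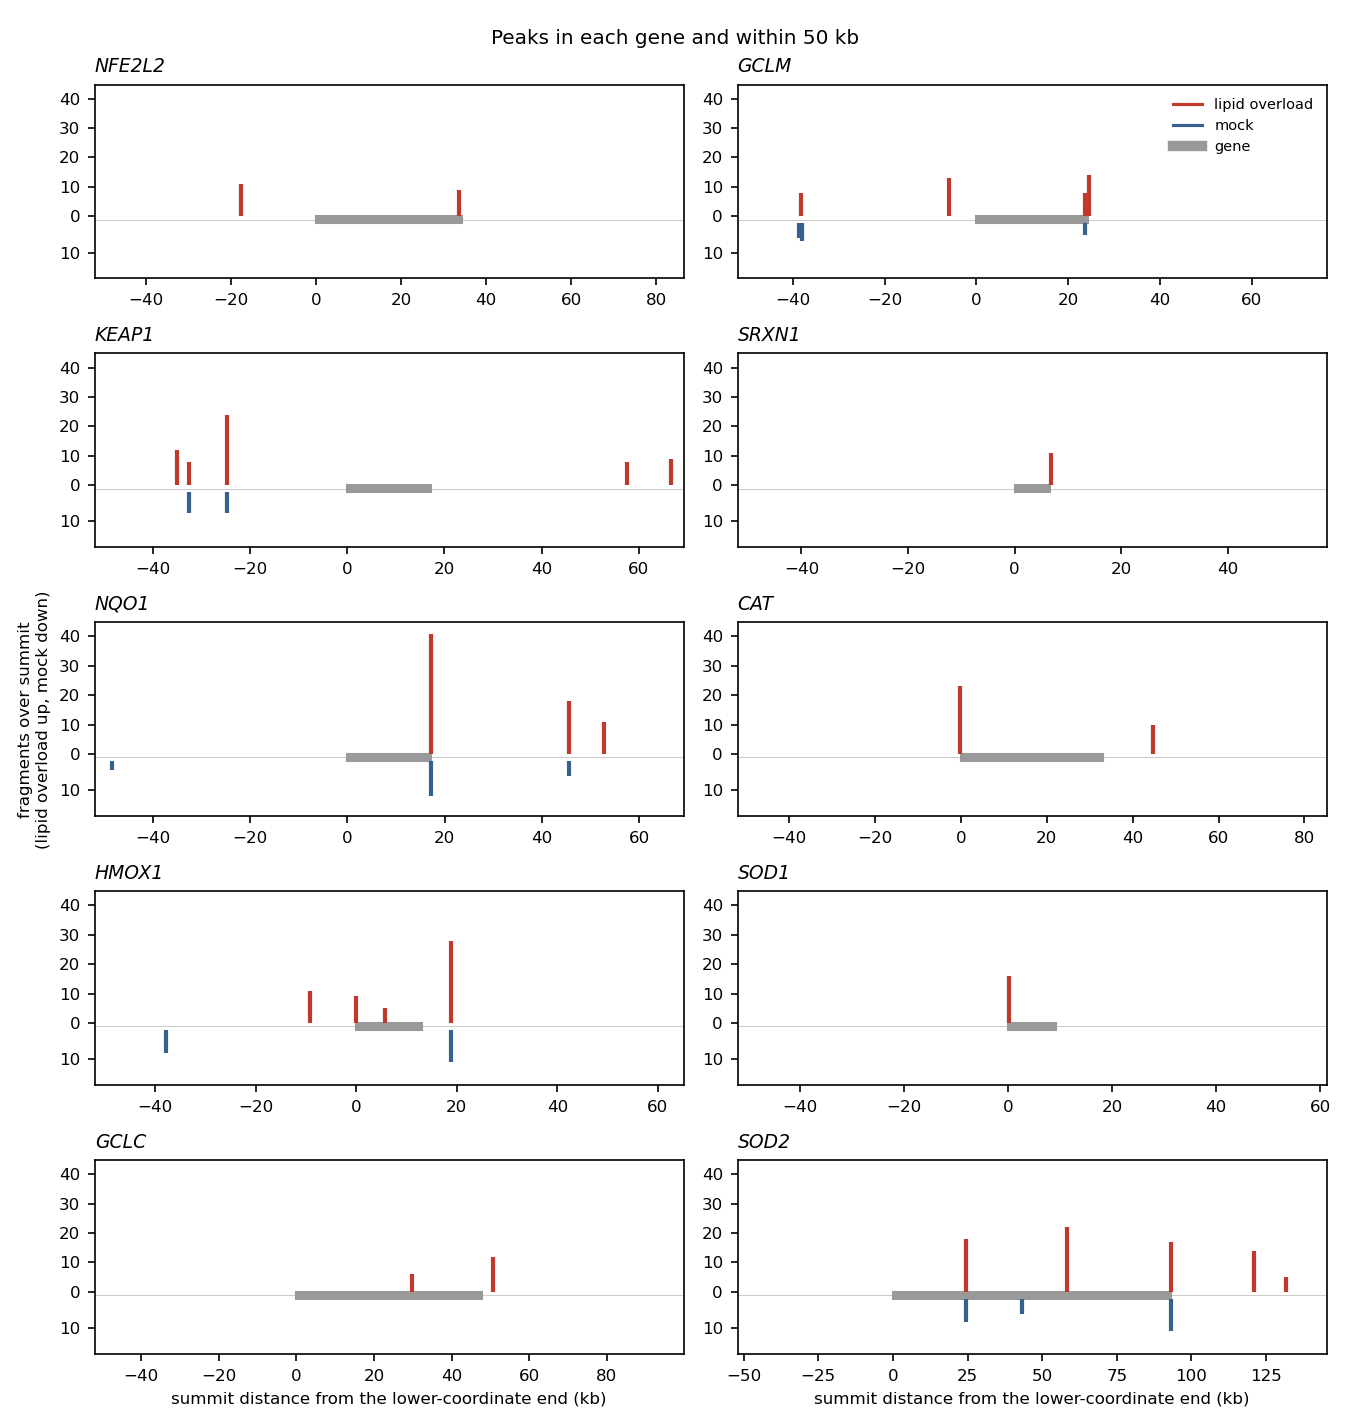
Height of every peak in each gene (grey) and within 50 kb, as fragments over the summit, lipid overload drawn upward and mock downward, against distance in kb from the lower-coordinate end. KEAP1 has no peak in the gene or at its ends, and the tallest peak near HMOX1 is the 28-fragment peak at MCM5.

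Peaks away from the gene ends were fewer inside the genes than in the flanks. The flanks of each gene, up to 50 kb on either side, cover more sequence than the gene itself, so these counts do not compare densities. In lipid overload 3 of the 10 genes held a peak inside, off the ends (background 27.8%), and in mock 1 of 10 (background 12.8%). In the flanks, up to 50 kb from the ends, 8 genes had a lipid-overload peak (background 68.5%) and 4 a mock peak (background 39.4%). The flanks held 16 lipid-overload peaks with a median of 11 fragments (5 to 28), and 8 mock peaks with a median of 6.5 (3 to 11). Of these, 9 lipid-overload and 3 mock peaks lay within 1 kb of an end of another protein-coding gene. Besides MCM5 near HMOX1, the highest of these were at NOB1, a ribosome assembly factor, near NQO1 (18 fragments in lipid overload, 5 in mock), and near SOD2 at a peak shared by the chaperonin gene TCP1 and the mitochondrial ribosomal protein gene MRPL18 (14 in lipid overload). DNTTIP2 near GCLM had 13 in lipid overload, HNRNPA3, an RNA-binding protein gene near NFE2L2, had 11, and the highest flank peak of CAT, with 10, lay inside the transcription factor gene ELF5.

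In all, 9 peaks of the lipid-overload list in these loci overlapped a mock peak, 3 at gene ends, 1 inside and 5 in the flanks. Their ratios ran from 1.14 at the weaker PDE4A pair near KEAP1 to 3.60 at NOB1. In 3 pairs the ratio was above 2.62 and in 6 below it, and the counting interval of all 9 held 2.62. At sites listed in both conditions, a difference beyond library depth was thus not detectable at these fragment numbers.

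Other genes of the pathway were also marked more often in lipid overload. This list, too, was chosen with earlier results of these data known. Of 54 partners, regulators and enzymes of the antioxidant response, 35 (64.8%) were marked in lipid overload and 12 (22.2%) in mock, against backgrounds of 43.4% in lipid overload and 13.4% in mock. All 12 genes marked in mock were marked in lipid overload, 23 were marked in lipid overload only, and 19 in neither list. Of all protein-coding genes, 12.1% were marked in both lists, 31.4% in lipid overload only and 1.34% in mock only. The median of the highest gene-end summits was 14 fragments in lipid overload over the 35 genes, where all marked protein-coding genes had a median of 12. In mock it was 7.5 over the 12 genes, where all marked genes had 7. The 8 marked members had a median of 15 in lipid overload.

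Among partners and regulators, 8 of 12 were marked in lipid overload and 1 of 12 in mock. For this and each group below, the background is 43.4% in lipid overload and 13.4% in mock. NFE2L1, which encodes a factor related to NRF2, had 42 fragments in lipid overload (30.3 to 56.8) and 10 in mock (4.80 to 18.4), in peaks shared with the coat protein gene COPZ2. RBX1, the RING subunit of the ligase that KEAP1 uses, had 19 in lipid overload only, or 7.24 depth-scaled. PALB2, a repair factor that binds KEAP1, had 11 in lipid overload only, in a peak shared with the dynactin gene DCTN5. Depth-scaled, PALB2 stood at 4.19, where, as for SRXN1, a difference between conditions was not detectable. The repressor gene BACH1 was not marked. Among glutathione genes, 6 of 9 were marked in lipid overload and 3 in mock. Glutathione synthetase (GSS) had 27 fragments in lipid overload and 9 in mock, in peaks shared with the myosin gene MYH7B. Glutathione reductase (GSR) had 15 in lipid overload and 8 in mock. The peroxidase gene GPX1 had 15 in lipid overload and 7 in mock, in peaks shared with the GTPase gene RHOA. SLC3A2, a subunit of the cystine importer, had 17 in lipid overload only, or 6.48 depth-scaled, and its partner SLC7A11 was not marked. Of the mock peaks, 66.8% had no more fragments than this scaled height of SLC3A2. For SLC3A2 and RBX1 a difference between conditions was not tested.

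Among thioredoxin and peroxiredoxin genes, 8 of 11 were marked in lipid overload and 1 in mock, PRDX6, with 24 fragments in lipid overload and 5 in mock. TXNIP, which binds and inhibits thioredoxin, had 21 in lipid overload only, TXN 13 and mitochondrial TXN2 12. Depth-scaled, these were 8.00 for TXNIP, 4.95 for TXN and 4.57 for TXN2. Of the mock peaks 55.3% had 5 or fewer fragments, so for TXN and TXN2 a difference between conditions was not detectable at this depth. All 6 genes of NADPH supply were marked in lipid overload, and 3 in mock: PGD with 17 fragments in lipid overload and 6 in mock, TKT with 16 in lipid overload and 6 in mock, and TALDO1 with 9 in lipid overload and 5 in mock, in peaks that do not overlap. Among haem and iron genes, 3 of 5 were marked in lipid overload and 2 in mock: BLVRB, a biliverdin reductase, with 36 fragments in lipid overload, in a peak shared with the spectrin gene SPTBN4, and 8 in mock, and ferritin heavy chain (FTH1) with 15 in lipid overload and 8 in mock. Of the detoxification and export genes, 2 of 8 were marked in lipid overload, and both were also marked in mock: EPHX1, an epoxide hydrolase, with 21 fragments in lipid overload and 11 in mock, and GSTA4, a glutathione transferase, with 13 in lipid overload and 5 in mock. Of the other 3 genes, 2 were marked in lipid overload and 0 in mock. SESN2, a stress-induced sestrin, had 15 fragments in lipid overload at an end, or 5.72 depth-scaled, and a mock peak elsewhere in the gene. For SESN2 and TXNIP a difference between conditions was not tested. At the 11 genes whose peaks in the 2 lists overlap, the ratio of lipid overload to mock ran from 1.88 to 4.80 with a median of 2.67, and all 11 counting intervals held 2.62.

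**Figure D4:**
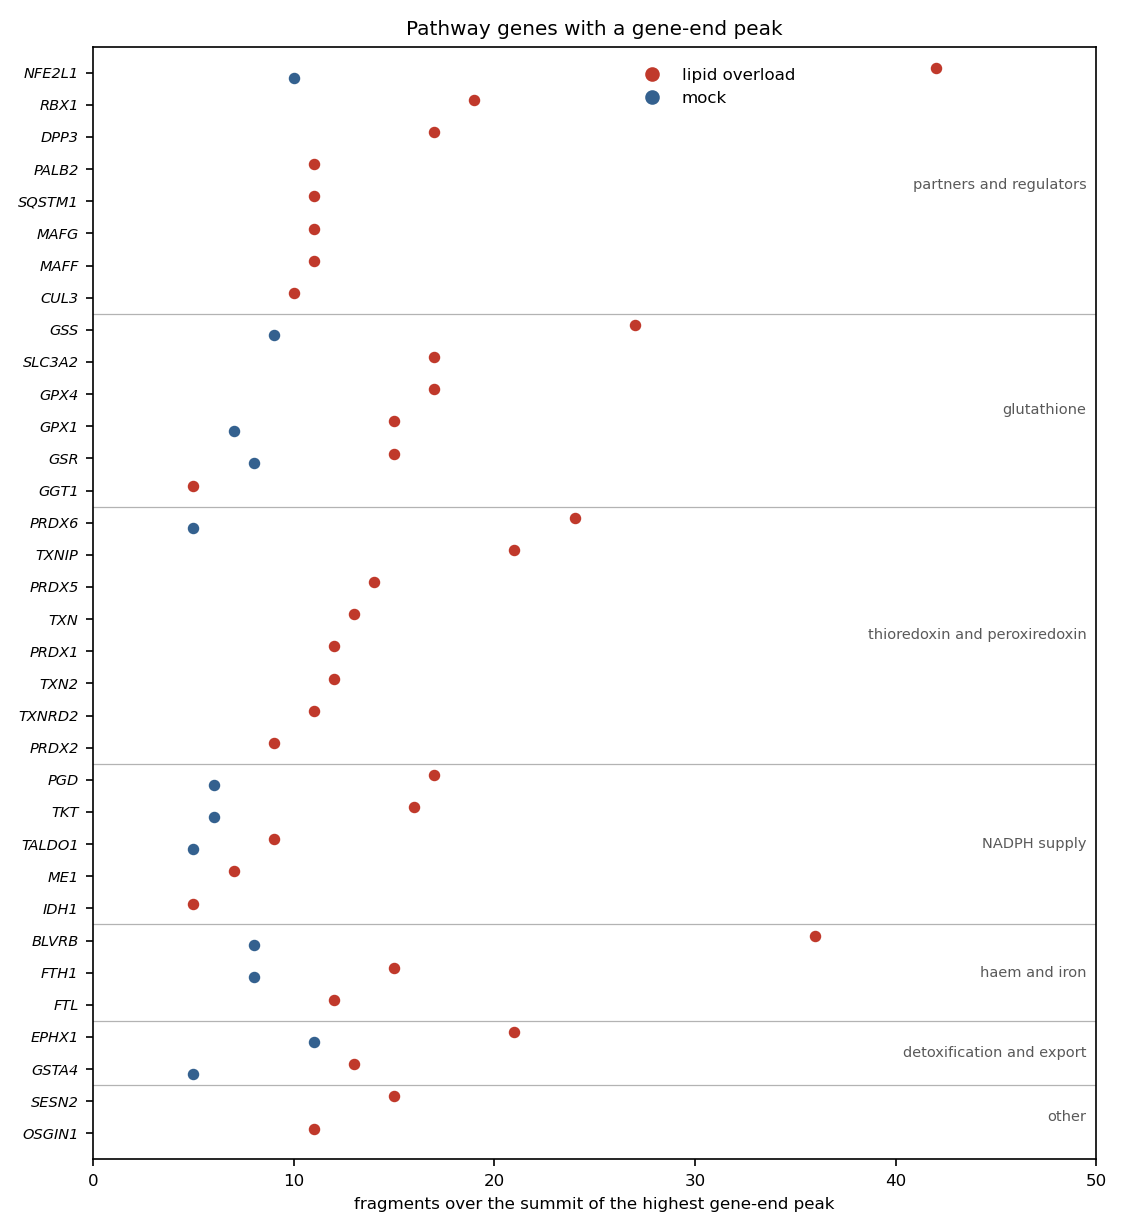
Fragments over the highest gene-end summit of 34 of the 35 pathway genes with a gene-end peak, lipid overload (red) and mock (blue, 12 genes), grouped by function. NFE2L1 and BLVRB stand highest in lipid overload at 42 and 36 fragments.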

How the data were processed

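γH2AX CUT&Tag was run in mock-induced and lipid overload-induced HepG2 cells, and groups were taken from the sample titles. The submitters' processing notes name MACS2 2.1.2, BWA, deepTools, FastQC and hg38. How peaks were called, and with what control, was not given in the sources used here. Each library has 1 deposited peak list, with a score, a fold (linear ratio), −log10 p, −log10 q and a summit offset per peak. These are the authors' own values and only describe or filter peaks within a list.

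Fragments over a summit and the local background were solved from the deposited fold and −log10 p under the MACS2 formulas. For 100% of peaks a whole number matched to 0.0001 in log10 p, and the step was tested on simulated data. Genome background over fragment length (124 bp in lipid overload, 137 bp in mock) gave the depth ratio. PCR copies are not independent molecules, so intervals cover counting error only.

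Genes came from the RefSeq table of GRCh38.p14, after 718 genes out of position order by over 1 Mb were set aside. Peaks touching 1 kb either side of a gene end were counted first, then those inside, then flanks. Any shared base is an overlap. 3′ ends within 3 kb of a start were left out. Named genes were the members, every pathway gene marked in mock, the 8 highest others by −log10 q (1 of which is not reported here), and neighbours at shared or highest flank peaks. ATG4D, SLC7A11 and BACH1 were named after their values were seen. The members and lists were chosen with earlier results of these data known. Intervals of heights are exact Poisson and of ratios exact binomial, both 95%. Python 3.11.15, numpy 2.4.6, scipy 1.17.1 and pandas 2.3.3 were used.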

Additional observations from a re-analysis of the deposited data

How the results depend on the processing

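The gene-end counts of the 10 genes stayed within 1.5 times their main value under all alternatives run, from 6 to 9 in lipid overload and from 2 to 3 in mock. The genes marked in lipid overload only numbered 5, from 3 (equal list lengths) to 6. With a −log10 q of at least 5, genes with an internal peak numbered 1 in lipid overload and 0 in mock (main 3 in lipid overload and 1 in mock), mock flank peaks 1 (main 8) and pathway genes marked in mock 3 (main 12). With a fold of at least 5, mock had 3 flank peaks and 7 marked pathway genes. With equal list lengths, lipid overload had 1 gene with an internal peak, 10 flank peaks (main 16) and 21 of 54 pathway genes marked (main 35). The share of all protein-coding genes marked fell as well, from 43.4% in the main setting to 25.9%. For the q and fold cuts no background share is given, so those counts cannot be set against all genes. Gene ends of 500 bp left 2 mock genes with an internal peak. Flanks of 10 kb held 4 lipid-overload and 1 mock peak, and flanks of 100 kb 33 lipid-overload and 15 mock peaks. In all, 56 of 71 recomputed counts stayed within 1.5 times, and 15 did not. Merging peaks within 1 kb, using summit positions and the 2 other overlap rules moved no count beyond that. Counting at RefSeq starts was added after the data had been seen. A height of 9 fragments has an interval from 4.12 to 17.1, so depth limits any order among the lower members. No paired analysis was possible because each condition has 1 library, and a single pair leaves no residual spread.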

Other observations

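The 3 protein-coding genes whose pair of gene-end heights was nearest to that of NQO1, by distance in log2(fragments + 1) over the 2 libraries, were DMPK with 41 fragments in lipid overload and 12 in mock, and BRPF1 and TMBIM6 with 42 in lipid overload and 12 in mock each. With 2 libraries and whole fragment numbers, such matches are a description of height alone.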
